A study of Mus musculus with 24 samples.

Results

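The suppressors of cytokine signalling (Socs1 to Socs7) and their close relative Cish are described here in mouse mammary gland, by all 17 array probes whose annotated gene name is one of these 8 genes, among 56605 probes that are not controls. The probes were picked by gene name, with no value in the rule, although the family itself was chosen with earlier results of these data known, and every probe was treated separately. Socs2 has 4 probes, Socs6 has 5, Socs4 has 3 and the other members have 1 each. Of the 17 probes, 15 passed a filter on dim probes, under which some group had to have 80% or more of its arrays well above background. The 2 that did not pass are probes 4 and 5 of Socs6, each well above background on 1 of 5 KI day-18 glands, 0 of 5 WT day-18 glands, 1 of 7 KI virgin glands and 0 of 7 WT virgin glands.

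The series compared C57BL/6 females homozygous for a knock-in of the SOCS2 R96C allele (KI) with homozygous wild-type females (WT), to study the allele in gland development and function. Inguinal number 4 glands, freed of their lymph node, came from 5 KI and 5 WT mice at day 18 of pregnancy and from 7 KI and 7 WT virgins aged 8 weeks. RNA of each gland was hybridised in 1 colour to a 60K mouse array. All 24 mice were different animals, the day-18 mice have no age in the labels, so pregnancy and age cannot be told apart, and the sources used here do not say how the KI line was made.

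SOCS proteins and CIS, the product of Cish, are feedback brakes on cytokine receptors. A cytokine activates JAK kinases and STAT transcription factors, the STATs raise transcription of SOCS genes, and the new proteins bind the receptor or kinase through an SH2 domain and recruit a ubiquitin ligase through a SOCS box. In the mammary gland the prolactin receptor signals through STAT5, the driver of alveolar differentiation. SOCS1, SOCS2 and CIS are among the known brakes on that branch, and SOCS3 is known to restrain STAT3. The R96C change lies in the SH2 domain of SOCS2, and a single base change is not read by a probe elsewhere in the transcript.

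The 4 Socs2 probes lie at a pair of sites on the minus strand of chromosome 10 (mm9 coordinates of the files). Proximal probe 1 (chr10:94875066-94875125) and proximal probe 2 (chr10:94875468-94875527) are annotated to the curated transcript NM_007706 and start 402 bp apart. Distal probe 1 (chr10:94850747-94850806, annotated to ENSMUST00000130784.7) and distal probe 2 (chr10:94848005-94848064, annotated to ENSMUST00000139210.7) start 24319 and 27061 bp from proximal probe 1 in the direction of transcription. Their first 30 bases are shown because the results on Socs2 turn on which site is read; no base is singled out.
Socs2 proximal 1: aggtgtgaagatgtagctaggtattttaaa
Socs2 proximal 2: tgacagtgtggttcatctgattgactacta
Socs2 distal 1: tgtcataggagaaactacatctgggaaatt
Socs2 distal 2: gccaatgctgacacaaagacaatctcttaa

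Values below are log2 signals minus the array's 75th percentile, so a difference of 1 is a doubling, and 0 is the level at that percentile; levels of different probes are not compared, since probes differ in brightness. Arrays gave 33374 to 57003 of 59305 spots well above background. The highest count came from KI virgin 376, whose negative controls read 331.5 against 19.45 to 41.39 on the other arrays, and KI day-18 gland 184 followed with 43055. KI virgin 198 had a luminal marker score (mean log2 level of 7 epithelial keratin, adhesion and claudin genes) of −2.65, where the median KI virgin had 2.53 and the median WT virgin 3.14. Its skeletal muscle score of 8.12 was the highest of the KI virgins, whose median was −0.59. All 24 arrays were kept, and results are also given without mice 376, 198 and 184. High muscle scores also came from WT virgin 320 (7.12, WT virgin median −3.02) and KI day-18 gland 211 (6.47, KI day-18 median 1.70). Both glands stay in the results without mice 376, 198 and 184.

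Socs2, which encodes the brake on growth hormone and prolactin signalling that carries the allele, was about 3-fold higher in KI glands at its distal site, while no genotype difference was called at its proximal site. Proximal probe 1 had 1.59, 1.31, 1.07, 1.31 and 1.59 in the KI day-18 glands, against 1.50, 1.46, 0.82, 1.53 and 1.36 in the WT day-18 glands. In KI virgins it ran from 0.24 to 2.49 with a median of 0.80, and in WT virgins from 0.52 to 2.83 with a median of 1.48. The groups overlapped at both stages, and the virgins of either genotype spread over more than 2 log2 units. The KI minus WT difference was 0.04 ± 0.42 (SE; limma adjusted p = 1.00) at day 18 and −0.59 ± 0.35 (adjusted p = 0.746) in virgins. Proximal probe 2 gave differences of −0.09 ± 0.45 and −0.66 ± 0.38 at these stages, neither past the threshold.

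Distal probe 2 had −1.54, −1.38, −1.36, −1.49 and −1.43 in the KI day-18 glands, against −3.65, −3.09, −3.46, −3.59 and −3.30 in the WT day-18 glands. Distal probe 1 had −1.11, −1.11, −1.84, −1.04 and −1.57 in KI day-18 glands, against −3.22, −2.65, −3.54, −3.18 and −3.09 in WT day-18 glands. For both probes every KI gland at day 18 lay above every WT gland, as for 0.45% of all probes. In virgins distal probe 2 ran from −1.91 to 0.09 (median −1.13) in KI and from −3.57 to −1.91 (median −2.47) in WT, and distal probe 1 from −1.67 to 0.19 (median −1.12) in KI and from −3.60 to −1.38 (median −2.08) in WT. The virgin ranges of both probes overlapped, those of distal probe 2 by less than 0.01, and 0 members had virgin groups that did not overlap, where the background was 0.0142%. All 4 Socs2 probes were well above background on all 24 arrays.

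**Figure D1:**
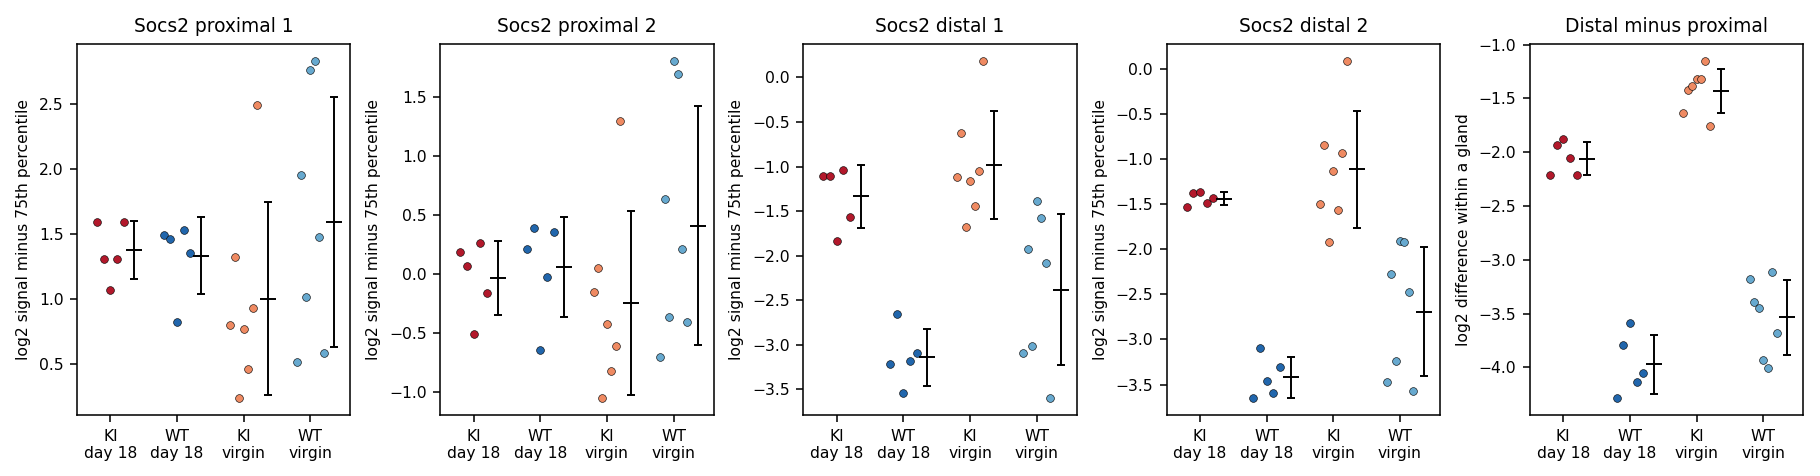
Log2 signal minus the array's 75th percentile for the 4 Socs2 probes, and, at the right, the distal mean minus the proximal mean within each gland (log2). Each point is 1 gland of the KI day-18, WT day-18, KI virgin or WT virgin group, and the bar beside it is the mean ± SD. The proximal probes overlap between genotypes, while the within-gland difference runs from −2.22 to −1.15 over the KI glands of both stages and from −4.29 to −3.12 over the WT glands.

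Averaged over the stages, the KI minus WT difference of distal probe 2 was 1.78 ± 0.22 (3.43-fold, adjusted p = 0.00119, exact stratified permutation p = 4.6e-06). That of distal probe 1 was 1.60 ± 0.25 (3.03-fold, adjusted p = 0.0202, exact stratified permutation p = 1.16e-05). They were the 2 probes of 15 members called, and the background was 0.0057% of 35117 probes tested, that is, these 2 probes themselves. Taken by stage, distal probe 2 differed by 1.98 ± 0.34 (95% interval 1.29 to 2.67, adjusted p = 0.177) at day 18 and by 1.58 ± 0.28 (0.99 to 2.16, adjusted p = 0.403) in virgins. Distal probe 1 differed by 1.80 ± 0.37 (adjusted p = 1.00) at day 18 and by 1.40 ± 0.32 (adjusted p = 0.746) in virgins. By limma 0 members were called at either stage taken alone, where the background was likewise 0%. At an unadjusted p under 0.05 there were 2 members at day 18, both distal probes (background 2.06%), and 3 in virgins, both distal probes and Socs3 (background 3.01%). The stage made no detected difference to the distal effects, with a genotype by stage interaction of 0.40 ± 0.44 for distal probe 2 and 0.41 ± 0.49 for distal probe 1 (adjusted p = 1.00 for each). No member was called for the interaction by limma (background 0%), and 1 member, Socs3, had an unadjusted p under 0.05 (background 0.982%). Between stages no Socs2 probe was called: proximal probe 1 differed by 0.37 ± 0.39 in KI and −0.26 ± 0.39 in WT, and distal probe 2 by −0.33 ± 0.31 in KI (adjusted p = 0.442) and −0.73 ± 0.31 in WT (adjusted p = 0.0672), this WT difference being past the threshold without WT virgin 188, 317 or 369 or KI virgin 384 (lowest adjusted p = 0.0267). Distal probe 1 differed by −0.35 ± 0.35 in KI and −0.76 ± 0.35 in WT (adjusted p = 0.0893), the WT difference being −0.96 and past the threshold without WT virgin 369 (adjusted p = 0.0227).

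The calls of the averaged comparison depended on how arrays were scaled. With median scaling or quantile normalization neither distal probe passed, at differences of 1.40 and 1.41 for distal probe 2 and 1.22 and 1.23 for distal probe 1. With normexp background correction both passed at smaller differences, 1.15 for distal probe 2 (adjusted p = 0.00747) and 1.06 for distal probe 1 (adjusted p = 0.0404), and distal probe 2 differed by 1.17 at day 18. Distal probe 1 also missed the threshold without KI day-18 gland 183, 184 or 211, WT day-18 gland 206, 233, 234 or 235, or KI virgin 198 (adjusted p of 0.0502 to 0.0772), and distal probe 2 passed with any 1 array left out (highest adjusted p = 0.00511). The comparison of both sites within a gland does not use a scale between arrays. The distal mean minus the proximal mean was −2.21, −1.93, −1.88, −2.05 and −2.22 in the KI day-18 glands, against −4.29, −3.80, −3.59, −4.14 and −4.05 in the WT day-18 glands. In KI virgins it ran from −1.76 to −1.15 (median −1.38), and in WT virgins from −4.01 to −3.12 (median −3.45). No KI gland overlapped a WT gland at either stage.

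The within-gland difference averaged −2.06 ± 0.16 in KI and −3.97 ± 0.28 in WT glands at day 18 (SD, n = 5 each), a KI minus WT difference of 1.91 ± 0.14 (SE; 3.77-fold; two-sided exact permutation p = 0.00794). In virgins it averaged −1.43 ± 0.21 in KI and −3.54 ± 0.35 in WT glands (SD, n = 7 each), a difference of 2.11 ± 0.15 (SE; 4.32-fold; two-sided exact permutation p = 0.000583). Each p is the smallest that 252 and 3432 splits of the glands allow. Within slides 1, 2 and 3 the difference was 2.08, 1.96 and 1.87 at day 18 and 1.78, 2.02 and 2.33 in virgins; slide 1 held 1 WT day-18 gland and slide 3 held 1 KI day-18 gland. Without mice 376, 198 and 184 it was 1.88 at day 18 and 2.05 in virgins. The SD of this quantity among virgins, 0.21 in KI and 0.35 in WT, was smaller than that of any single Socs2 probe there, which ran from 0.61 to 1.02. Since the distal probes were already known to differ in these data, this test is not independent of their calls. Stage moved the within-gland difference too, by −0.63 ± 0.10 in KI glands (exact permutation p = 0.00253) and by −0.44 ± 0.18 in WT glands (exact permutation p = 0.0480). Within slides 1, 2 and 3 that stage difference was −0.85, −0.50 and −0.52 in KI and −1.14, −0.44 and −0.05 in WT, so in WT it was close to 0 within slide 3.

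A further probe lies between both sites on the strand of Socs2 (mm9, chr10:94871153-94871212, 3913 bp from proximal probe 1), carries no gene name, and was read after the Socs2 values had been seen. It had −0.68, −1.001, −0.43, −0.11 and −0.20 in KI day-18 glands, against −1.73, −1.36, −1.34, −1.32 and −1.56 in WT day-18 glands, with no overlap. Averaged over stages it was 0.76 ± 0.24 higher in KI (unadjusted p = 0.00438, adjusted p = 0.643), which did not pass over all probes. Set against the proximal mean of the same gland, it was 1.00 higher in KI at day 18 (exact permutation p = 0.0238) and 1.17 higher in KI virgins (exact permutation p = 0.000583). The distal mean minus this probe was in turn 0.91 higher in KI at day 18 (exact permutation p = 0.00794) and 0.94 higher in KI virgins (exact permutation p = 0.00175), so its KI minus WT difference lay between those of both sites. Of 11 other tested probes within 300 kb of proximal probe 1, none was called, and their averaged KI minus WT differences ran from −0.33 to 0.41.

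**Figure D2:**
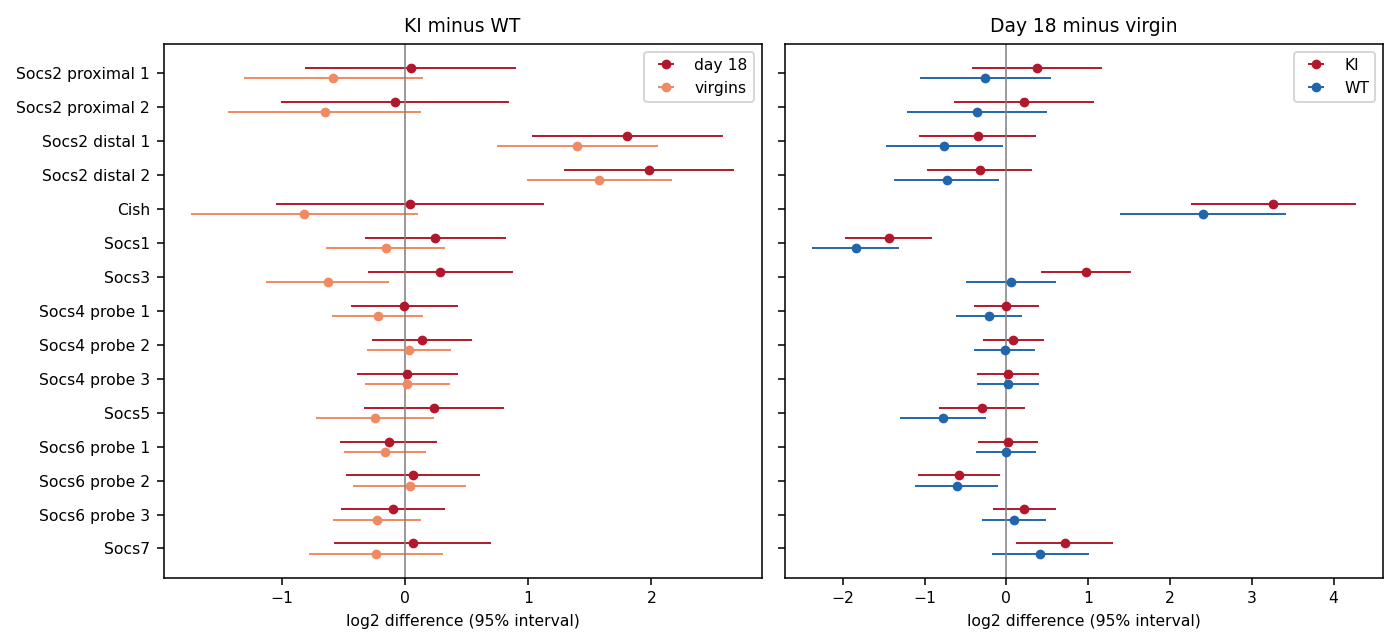
Log2 differences of the 15 tested member probes with 95% intervals, as KI minus WT at day 18 and in virgins (left) and as day 18 minus virgin in KI and WT (right). On the left both Socs2 distal probes have intervals above 0 at both stages; on the right Cish lies at 3.27 in KI and 2.40 in WT, and Socs1 at −1.43 in KI and −1.84 in WT.

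Cish, whose product CIS binds activated receptors that use STAT5, was the member that rose most with pregnancy. Its probe lies at chr9:107204196-107204255 on the plus strand (mm9) and is annotated to NM_009895. It had 3.62, 3.64, 3.94, 3.24 and 4.14 in KI day-18 glands, where KI virgins ran from −0.95 to 2.57 (median 0.49). In WT it had 4.09, 3.42, 3.89, 3.52 and 3.47 at day 18, where WT virgins ran from −0.20 to 2.79 (median 1.12). Every day-18 gland lay above every virgin of its genotype, a separation in either direction shown by 18% of all probes in KI and 35.9% in WT, and the day-18 glands were more alike, with an SD of 0.34 in KI and 0.30 in WT against 1.21 and 0.99 in the virgins of these genotypes. The rise was 3.27 ± 0.49 in KI (9.62-fold, adjusted p = 1.25e-05, exact permutation p = 0.00126) and 2.40 ± 0.49 in WT (5.29-fold, adjusted p = 0.000398, exact permutation p = 0.00253). Between genotypes Cish differed by 0.04 ± 0.53 at day 18 and by −0.82 ± 0.45 (95% interval −1.74 to 0.10) in virgins, and the interaction of 0.86 ± 0.69 did not pass (adjusted p = 1.00). Within slide 3 the rise was 1.45 in KI and 1.30 in WT, against 3.25 to 4.02 within slides 1 and 2 over both genotypes; slide 3 held KI virgin 384 and WT virgins 318 and 320, the virgins with the highest Cish.

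Socs1, the inhibitor that binds JAK kinases directly and restrains interferon gamma signalling, moved the other way. Its probe lies at chr16:10783951-10784010 on the minus strand (mm9, NM_009896). It had −2.34, −2.35, −2.14, −2.28 and −2.46 in KI day-18 glands, where KI virgins ran from −1.44 to 0.18 (median −1.10). In WT it had −2.78, −2.61, −2.61, −2.58 and −2.22 at day 18, where WT virgins ran from −1.43 to −0.12 (median −0.56). All day-18 glands lay below all virgins of their genotype, a separation in either direction shown by 18% of all probes in KI and 35.9% in WT. It fell by 1.43 ± 0.26 on the log2 scale in KI (adjusted p = 0.000103) and by 1.84 ± 0.26 in WT (adjusted p = 5.9e-06). With median scaling and quantile normalization the KI fall did not pass, at −1.23 (adjusted p = 0.0556) and −1.09 (adjusted p = 0.106, the highest over its alternatives). Between genotypes Socs1 differed by 0.24 ± 0.28 at day 18 and by −0.16 ± 0.24 in virgins, neither past the threshold.

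Socs3, the inhibitor of gp130 receptors and STAT3, rose with pregnancy in KI glands. Its probe lies at chr11:117827480-117827539 on the minus strand (mm9, NM_007707). It had 1.62, 2.10, 2.04, 2.32 and 2.08 in KI day-18 glands, where KI virgins ran from 0.36 to 1.86 (median 1.03), and 1.60, 2.16, 1.69, 1.76 and 1.54 in WT day-18 glands, where WT virgins ran from 0.70 to 2.61 (median 1.68). The ranges overlapped in both genotypes. The stage difference was 0.97 ± 0.26 in KI (adjusted p = 0.00490) and 0.06 ± 0.26 in WT (adjusted p = 0.892). The difference between them, an interaction of 0.92 ± 0.37, had an unadjusted p of 0.0222 and an adjusted p of 1.00, so a stage effect that differs by genotype was not shown. KI virgins were 0.63 ± 0.24 lower than WT virgins (unadjusted p = 0.0152, adjusted p = 0.746, exact permutation p = 0.0513), by −1.36 within slide 1 and by −0.09 and −0.29 within slides 2 and 3. Among cell type markers in virgins, the median KI minus WT difference was −1.31 over 7 luminal, −0.84 over 6 basal, −2.91 over 4 milk secretion and 1.92 over 6 skeletal muscle markers, and at day 18 it was 4.55 over the muscle markers and 0.04 over the luminal ones. By limma 0 of 53 markers were called between genotypes, as for 0% of all probes at either stage. At an unadjusted limma p under 0.05 there were 3 of 53 at day 18 (background 2.06%) and 10 of 53 in virgins (background 3.01%). Both marker shares lie above the background, that of the virgins most. Averaged over stages there were 6 of 53, a comparison for which this background is not given here. The part of these markers in the genotype differences was not tested. With median scaling (1.18, adjusted p = 0.0798) or spike-in scaling (0.15, adjusted p = 0.681) the KI rise did not pass, where its other alternatives had an adjusted p from 0.00146 upward.

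**Figure D3:**
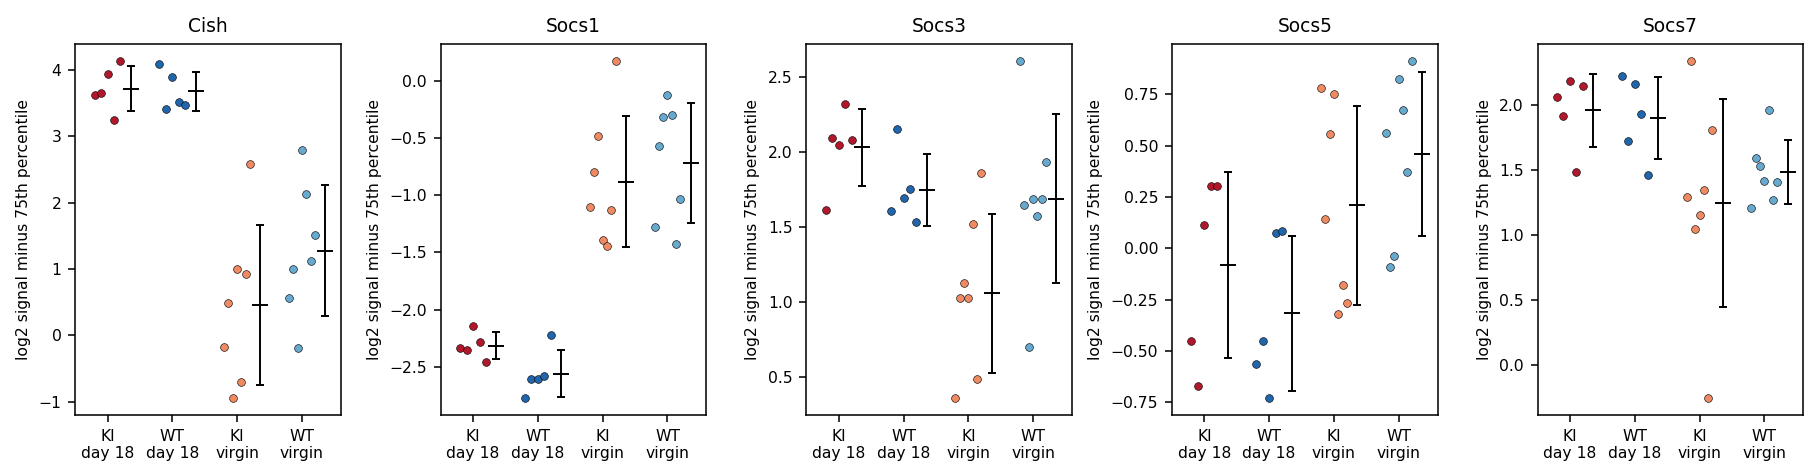
Log2 signal minus the array's 75th percentile for the probes of Cish, Socs1, Socs3, Socs5 and Socs7, 1 point per gland with the mean ± SD beside each group, in the order KI day 18, WT day 18, KI virgin, WT virgin. Cish lies higher and Socs1 lower in the day-18 glands of both genotypes without overlap, and KI day-18 and WT day-18 overlap for all 5 genes. Stages did not overlap, in either direction, for 18% of all probes in KI and 35.9% in WT.

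Socs5 and Socs4, known chiefly as inhibitors of epidermal growth factor receptor signalling, gave 1 call between them. The Socs5 probe lies at chr17:87533521-87533580 on the plus strand (mm9, NM_019654). Socs5 fell by 0.78 ± 0.25 in WT at day 18 (adjusted p = 0.0177) and differed by −0.29 ± 0.25 in KI (adjusted p = 0.395). WT day-18 glands had −0.56, −0.45, −0.73, 0.07 and 0.09, where WT virgins ran from −0.09 to 0.91 (median 0.56), so the groups overlapped. The WT fall was −0.60 with median scaling and did not pass there (adjusted p = 0.416) or without WT day-18 gland 233 (−0.67, adjusted p = 0.0577), in a range of adjusted p from 1.9e-05. The 3 Socs4 probes had stage differences between −0.21 and 0.09 and genotype differences between −0.23 and 0.14, with no call.

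Socs6 and Socs7, whose products are known to bind insulin receptor substrates, gave no call under the main settings. Socs6 probe 2 had stage differences of −0.58 ± 0.24 in KI (adjusted p = 0.0642) and −0.61 ± 0.24 in WT (adjusted p = 0.0522), while probes 1 and 3 of the same gene had 0.02 and 0.22 in KI and −0.01 and 0.09 in WT; the probes thus disagree. The fall of probe 2 was called under 10 of 36 alternatives in WT, among them the slide as a block (−0.64, adjusted p = 0.0436) and the arrays without mice 376 and 184 (adjusted p = 0.0323), in a range of adjusted p from 8.4e-05 to 0.610. In KI it was called under 6 of 36, in a range from 0.000240 to 0.999. Single arrays whose removal made the call were WT virgin 369, KI virgin 376 and WT day-18 glands 232, 233 and 234 for WT, and KI virgin 376 and WT day-18 gland 206 for KI. The Socs7 probe lies at chr11:97259763-97259822 on the plus strand (mm9, NM_138657). Socs7 had 2.06, 1.92, 2.18, 1.49 and 2.15 in KI day-18 glands, where KI virgins ran from −0.26 to 2.34 (median 1.29). Its stage difference was 0.72 ± 0.29 in KI (adjusted p = 0.0513) and 0.42 ± 0.29 in WT (adjusted p = 0.270). KI virgin 376 had the lowest and KI virgin 198 the highest of these values. The KI difference was 0.46 without mouse 376 (adjusted p = 0.0679), 0.90 without mouse 198 (adjusted p = 0.00912) and 0.64 without mice 376, 198 and 184 (adjusted p = 0.00931), in a range of adjusted p up to 0.740. With all arrays kept it was also called with outlier spots kept (adjusted p = 0.0497) or with the deposited matrix values (adjusted p = 0.0481). The WT difference was called when only the WT groups were fitted (adjusted p = 0.0438) and without mice 376, 198 and 184 (adjusted p = 0.0430).

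In all, 3 of 15 member probes were called between stages in KI (Cish and Socs3 higher, Socs1 lower), where 39.4% of all probes were called, and 3 of 15 in WT (Cish higher, Socs1 and Socs5 lower), where 38.8% were. By probe both member shares lie below the background, but Socs2 (4 tested probes), Socs4 (3) and Socs6 (3) had no call and are counted repeatedly. By gene the calls fall on 3 of 8 members in each genotype, so the lower share is not read as a result about the family. The median stage difference of the 15 member probes was 0.02 in KI and −0.21 in WT, beside medians of −0.03 and −0.04 over all probes. RNA of cell type markers changed with stage as well, and in a bulk gland fewer cells of a type and less RNA per cell cannot be told apart. Of 7 luminal markers, 4 were higher at day 18 in KI and 3 in WT; the score ran from 4.05 to 4.81 in KI day-18 glands, 3.89 to 4.52 in WT day-18 glands, −2.65 to 3.17 in KI virgins and 1.50 to 3.63 in WT virgins. Of 6 adipocyte markers, 4 were lower in each genotype, with scores of 2.05 to 3.52 in KI day-18 glands, 3.10 to 3.47 in WT day-18 glands, 3.08 to 5.00 in KI virgins and 4.50 to 4.79 in WT virgins. All 4 macrophage markers were lower in WT and 3 of 4 in KI, while T cell markers were higher for 4 of 4 in WT and 1 of 4 in KI. Fibroblast markers were lower for 5 of 5 in each genotype, with medians of −0.998 in KI and −1.35 in WT. Schwann cell markers were lower for 3 of 4 and higher for 1 of 4 in each genotype. Basal markers were higher for 5 of 6 in KI and 2 of 6 in WT. For the genotype by stage interaction 0 of 53 markers were called, as for 0% of all probes. Stage changes of markers that differ by genotype were thus not shown. The part of cell makeup in the stage differences of Cish, Socs1, Socs3 and Socs5 was not tested.

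Among single virgin glands the 4 Socs2 probes moved together, and Cish moved with them. In deviations from group means over 14 virgins, the 6 pairs of Socs2 probes had Pearson r of 0.92 to 0.98, across the sites as well as within them. KI virgin 384 and WT virgins 318 and 320 were the highest for both genes: proximal probe 1 had 2.49 in KI 384, 2.76 in WT 318 and 2.83 in WT 320, and Cish had 2.57, 2.79 and 2.13 in these glands. At the low end, KI virgins 251 and 314 had 0.24 and 0.46 for proximal probe 1 and −0.95 and −0.71 for Cish.

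Over 105 pairs of the 15 tested probes, 17 pairs correlated in virgins at an adjusted permutation p under 0.05, 9 of the 12 pairs within a gene and 8 of the 93 pairs between genes. The pairs between genes include Cish with each of the 4 Socs2 probes. The share of correlated pairs among other probes of the array was not computed for either stage. The counts of pairs are therefore not read as a trait of the family. Proximal probe 1 and Cish had r = 0.79 (permutation p = 0.00135, adjusted p = 0.0109) and Spearman rho = 0.71 (permutation p = 0.00820, adjusted p = 0.0652), so the rank correlation did not pass after adjustment. Without the 2 glands farthest from the median, KI 384 and WT 320, r was 0.65, and it was 0.90 within the KI virgins and 0.72 within the WT virgins. With slide means also removed r was 0.78, and without mice 376, 198 and 184 it was 0.80. The other Socs2 probes had r of 0.73 to 0.81 with Cish, all past the adjusted threshold. Of all tested probes, 0.117% had an r with proximal probe 1 at least as high as that of Cish. Without KI virgin 384 the number of correlated pairs was 10.

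**Figure D4:**
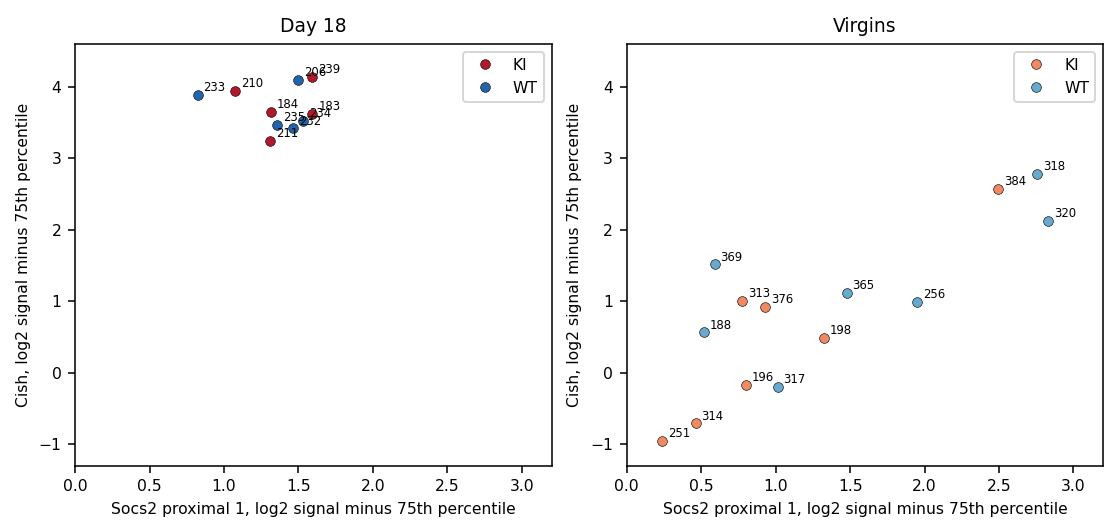
Cish against Socs2 proximal probe 1, both as log2 signal minus the array's 75th percentile, 1 point per gland labelled with its mouse number, at day 18 (left) and in virgins (right). In virgins the glands spread along both axes together (r of deviations from group means 0.79), and at day 18 all 10 glands lie in a narrow range with Cish between 3.24 and 4.14.

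At day 18 this relation was not seen. Over 10 glands proximal probe 1 and Cish had r = −0.11 (exact permutation p = 0.758) and rho = 0.12, and the other Socs2 probes had r of −0.74 to −0.32 with Cish, none past the adjusted threshold. The proximal probes had r = 0.72 with each other and the distal probes 0.32, neither past the adjusted threshold. The difference between the stages in these correlations was not tested, and the spread of both genes was smaller at day 18. Of 105 pairs 3 passed, all among Socs2 proximal probe 2, Socs2 distal probe 1 and Socs4 probe 1 (r of 0.88 to 0.93). Leaving out any of the 5 KI glands or WT gland 233 left 0 correlated pairs, where 11 pairs had an unadjusted p under 0.05 with all glands.

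The correlations of Socs1 and Socs3 with Socs2 did not pass after adjustment. In virgins Socs1 had r = 0.68 with proximal probe 1 (permutation p = 0.0142, adjusted p = 0.0744; rho = 0.58), and 0.45 without KI 384 and WT 320. Socs3 had r of 0.05 with proximal probe 1 (permutation p = 0.887), and 0.28 with Cish (permutation p = 0.354). The other correlated pairs between genes in virgins joined Socs4 probe 1 with Socs6 probes 1 and 3 (r = 0.83 and 0.82), Socs4 probe 3 with Socs6 probe 2 (r = 0.83) and, with the opposite sign, Socs4 probe 3 with Socs5 (r = −0.74). The array of mouse 376 was among the 2 farthest glands in the first pair, whose r was 0.66 without them. In the second pair mouse 376 was likewise the lowest KI virgin for both probes, at −3.84 for Socs4 probe 1 and −0.43 for Socs6 probe 3. Socs4 probe 1 was well above background on 6 of 7 KI virgin arrays.

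**Figure D5:**
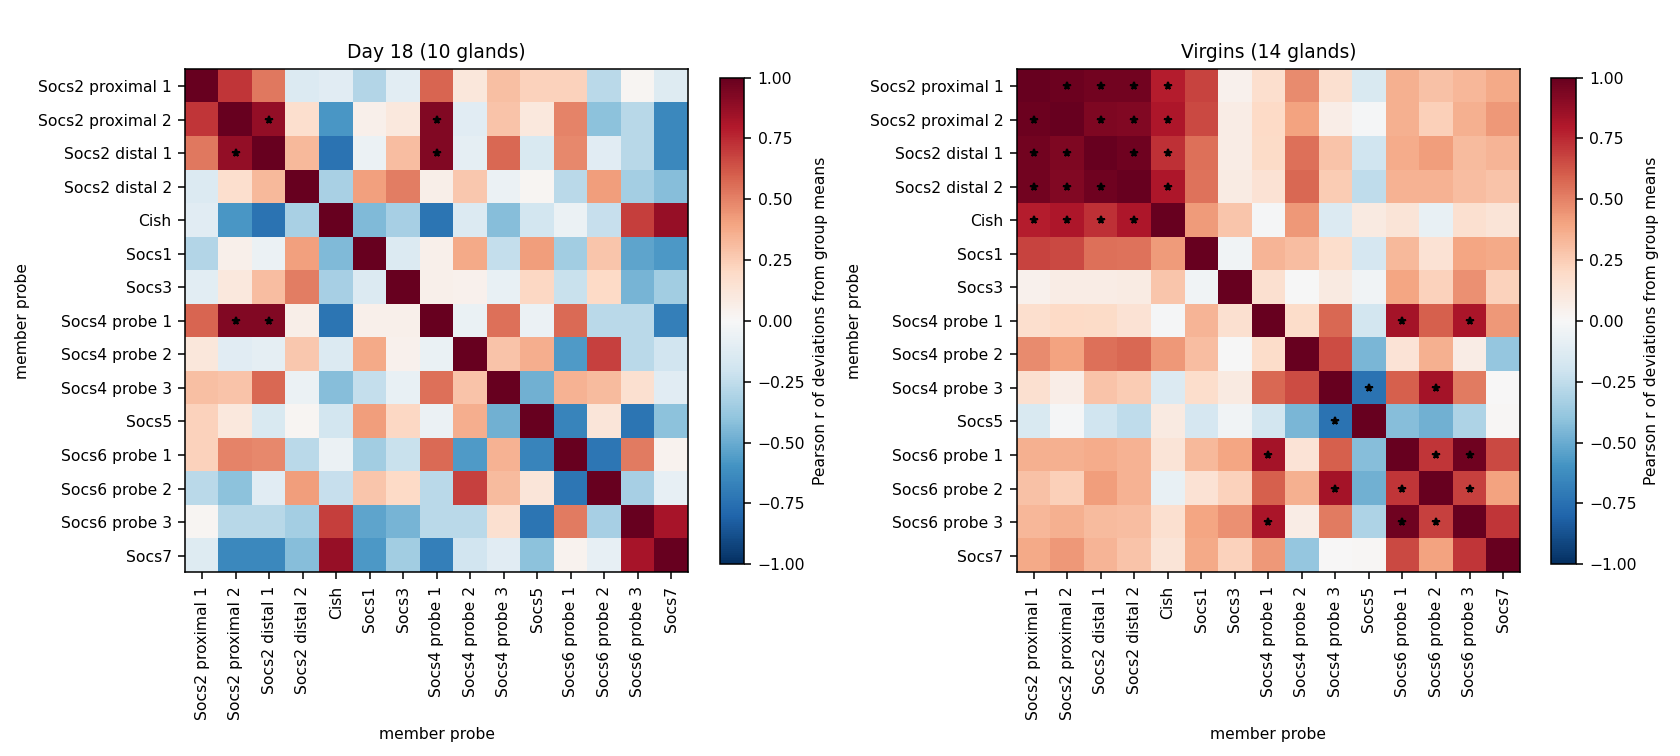
Pearson r between the 15 tested member probes, in deviations from group means, over 10 day-18 glands (left) and 14 virgin glands (right); stars mark pairs with an adjusted permutation p under 0.05. The virgin panel holds a block of the 4 Socs2 probes and Cish with r from 0.73 to 0.98, which the day-18 panel lacks.

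Marker scores were set against the same deviations, as 55 relations per stage between 5 member probes and 11 cell type lists. None passed after adjustment (lowest adjusted permutation p = 0.748 at day 18 and 0.958 in virgins). In virgins r of Cish with these scores ran from −0.53 to 0.10, and r of proximal probe 1 from −0.48 to 0.44. Over all 24 glands, the named genes most like proximal probe 1 were Morrbid (r = 0.87), Plod2 (0.83), Tmem86a (0.81), Gm4847 (0.81) and Ern1 (0.805) of 16871 compared, and those most like distal probe 1 were Greb1 (0.83), Plod2 (0.82), Morrbid (0.77), Anxa8 (0.75) and Tmem86a (0.75). For Cish they were Gfod2 (0.85), Dcun1d3 (0.81), Esrrb (0.75), Lce6a (0.74) and Tph1 (0.74). For Socs1 they were Gas6 (0.81), Adcy5 (0.81), Gm9706 (0.79), Isg15 (0.79) and Oas1a (0.76), and for Socs3 Dusp2 (0.70), Ifitm1 (0.63), Osmr (0.63), Arv1 (0.63) and Exoc3l2 (0.63). These are descriptions over glands that share arrays and scaling, and no test was made of them. Each of these 5 probes spread more among virgins than at day 18, so the virgins weigh most in these r. Proximal probe 1, for example, had an SD of 0.74 in KI and 0.96 in WT virgins, against 0.22 in KI and 0.29 in WT day-18 glands.

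The wider pathway was read by 1 probe per gene, the brightest that passed the filter. No gene of 7 lists was called between genotypes at either stage by limma, as for 0% of all probes. At an unadjusted p under 0.05 there were 1 of 63 genes at day 18 and 2 of 63 in virgins, shares near the 2.06% and 3.01% of all probes at these stages. Between stages, the STAT5 targets held 5 genes higher and 2 lower of 8 in each genotype. Elf5, the transcription factor of alveolar cells, was higher by 6.69 in KI and 5.56 in WT, and the milk protein gene Csn2 by 11.60 in KI and 9.02 in WT. The whey protein gene Wap was higher by 13.36 in KI and 10.02 in WT. Bcl2l1, which encodes a survival factor, was higher by 1.15 in KI and 0.82 in WT, and the kinase gene Pim1 by 0.97 in KI and 1.25 in WT. Igf1, the growth hormone effector, was lower, at −1.98 in KI and −2.78 in WT, as was the repressor gene Bcl6, at −1.26 in KI and −1.47 in WT. Among 11 kinases and STATs, 3 were higher in each genotype, namely Stat5a (1.42 in KI, 0.99 in WT), Stat3 (1.47 in KI, 1.00 in WT) and Jak3 (0.49 in KI, 0.43 in WT).

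Of 14 cytokine receptors, 5 were higher and 3 lower in KI, and 2 higher and 2 lower in WT. The growth hormone receptor gene Ghr was lower in both, at −1.29 in KI and −1.60 in WT, as was the shared gp130 receptor gene Il6st, at −0.73 in KI and −0.88 in WT. The leptin receptor gene Lepr was higher, at 1.20 in KI and 1.21 in WT, as was Il6ra, which encodes the IL6 receptor, at 1.02 in KI and 0.96 in WT. Called in KI were also Ifngr1 (0.63 in KI, 0.48 in WT), Ifngr2 (0.88 in KI, 0.53 in WT), Il4ra (0.94 in KI, 0.68 in WT) and the erythropoietin receptor gene Epor (−0.76 in KI, −0.22 in WT), none of which was called in WT. For the genotype by stage interaction 0 of the 63 pathway genes were called, as for 0% of all probes, so stage effects that differ by genotype were not shown. The prolactin receptor gene Prlr had −0.28 in KI and −1.46 in WT and did not pass. None of the 6 ligase partners of the SOCS box (Elob, Eloc, Cul5, Rnf7, Cul2 and Rbx1) was called by limma, 1 of 6 in each genotype having an unadjusted p under 0.05 (background 46.5% in KI and 46.3% in WT), with a median difference of 0.11 in KI and 0.02 in WT. Of 11 other brakes, 2 were higher and 3 lower in KI and 2 higher and 4 lower in WT; the phosphatase gene Ptpn2 was higher by 0.75 in KI and 0.52 in WT, as was Pias2, by 1.05 in KI and 0.98 in WT. Pias3, which encodes an inhibitor of STAT3, was lower, at −1.11 in KI and −0.91 in WT, as were the phosphatase gene Ptpn6 (−0.62 in KI, −0.70 in WT) and the ubiquitin ligase gene Cblb (−0.67 in KI, −0.64 in WT), and Cbl was called in WT (−0.26 in KI, −0.61 in WT).

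Targets of STAT3 and IL6-type cytokines were higher for 6 of 8 genes in KI and 4 of 8 in WT, with a median of 1.54 in KI and 1.12 in WT. The acute phase genes Saa1 and Saa2 led, at 8.51 and 11.96 in KI and 7.53 and 10.88 in WT. Lbp, another acute phase gene, was higher by 3.32 in KI and 3.54 in WT, and the transcription factor gene Cebpd by 1.86 in KI and 1.55 in WT. Bcl3 and Junb passed in KI (1.12 and 1.21) and had 0.30 and 0.69 in WT without passing; their interaction was not called. Over all probes 39.4% were called between stages in KI and 38.8% in WT, so these shares are read beside a large background.

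Promoter sequence was given for 4 of the 8 members, Cish, Socs1, Socs3 and Socs4 (RefSeq, GRCm38.p6). The spelled STAT motif TTCNNNGAA, which reads the same on both strands, was searched in the 250 bases before the start. It occurs once in Socs3 and not in the windows of Cish, Socs1 and Socs4, and 7.02% of 32851 such windows hold it. The stretch of Socs3 from 199 to 101 bases before the start (chr11:117969467-117969565, minus strand) is shown because it holds the 1 match among these members, in capitals.
Socs3 promoter: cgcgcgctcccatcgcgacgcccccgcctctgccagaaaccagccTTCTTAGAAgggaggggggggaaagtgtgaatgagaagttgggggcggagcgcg
A match describes these letters and does not show that a factor binds there.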

How the data were processed

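Gene lists and tests, like the family, were chosen with earlier results of these data known. The authors read 24 1-colour arrays with Agilent Feature Extraction 12.0.3.2, per the submitters' processing notes, under protocol GE1_1200_Jun14, per the file headers. The deposited processed signals are intensities, background-subtracted and detrended within an array and not scaled between arrays. The deposited matrix gives these signals as log10 values, which differed from log10 of the scanner files' signals by at most 0.0050. The sources used here do not state a scaling between arrays.

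Outlier spots were set to missing, log2 signals were reduced by the array's 75th percentile over non-control spots, and replicate spots averaged. A probe needed to be well above background on 80% of the arrays of 1 group, which left 35117 of 56605. limma 3.58.1 (R 4.3.3) fitted a mean per group to all 24 arrays, with Benjamini-Hochberg adjustment over all probes and a threshold of 0.05. The adjusted p values named limma or adjusted come from that fit, except for correlations, adjusted over 105 pairs (or 55 marker relations) per stage. Differences ± SE come from limma, apart from the within-gland Socs2 difference, whose SE is that of 2 means. Exact tests were two-sided over all splits of the glands (252 at day 18, 3432 in virgins, 792 between stages). Correlations used deviations from group means, permuted within groups (100000 resamples in virgins, all rearrangements at day 18). Python 3.11.15 and scipy 1.17.1 were used. The fits were tested on simulated data.

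All 17 member probes are named in the text. Likeness names the 5 genes of highest r over 24 glands, 1 probe per gene, for 5 members, other members apart. Genes of the pathway lists are named where past the threshold, and Prlr and the ligase partners otherwise; the stage result of 1 of the 7 lists is not reported here. Gene names come from the files, updated through RefSeq by accession for 35405 of 56605 probes, by symbol for 9124 and by synonym for 25. Labels do not say that glands shared a day or litter, and each is a separate mouse. The slide (3 slides, all groups on each) was tried as a block. Precision is limited by 5 to 7 arrays a group.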

Additional observations from a re-analysis of the deposited data

Results flagged for a closer look

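Of 64 sets of values tested, 15 probes and the within-gland Socs2 difference in 4 groups, 2 held a gland apart from the rest, where chance marks about 1 in 20. Both concern WT day-18 gland 233: Socs2 proximal probe 1 at 0.82, next to 1.36 for the nearest gland of its group, and Socs4 probe 1 at −3.81, next to −3.27.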

How the results depend on the processing

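The within-gland Socs2 difference kept its direction and its side of the threshold under every alternative run, from 1.16 to 1.97 at day 18 and 1.67 to 2.11 in virgins, and from 1.84 to 2.01 and 2.03 to 2.18 with 1 array left out. Under the main settings it was 1.91 at day 18 and 2.11 in virgins. Alternatives that only subtract a constant per array, such as median or spike-in scaling, could not move it and do not test it. The number of member probes called between genotypes over both stages was 2, and 0 with median scaling or quantile normalization, 1 with spike-in scaling, without the filter on dim probes or without mice 376, 198 and 184, and 1 to 2 with 1 array left out. Where it was 1, distal probe 1 was the one lost. Median scaling moved the median of all probes to −0.34 in that comparison, relative to which distal probe 2 differed by 1.74. That value follows from the main settings, since median scaling shifts all probes of an array alike, and is no separate support. Over its alternatives the adjusted p of distal probe 2 ran from 0.000628 to 0.514. At day 18 alone the count was 0, and 1 when only the day-18 arrays were fitted (distal probe 2, adjusted p = 0.000646, in a range up to 1.00) and 0 to 1 with 1 array left out (1 without KI virgin 384). Between stages the 3 calls in KI were 1 with median scaling, 11 with spike-in scaling and 5 without the 3 arrays, and 3 to 4 with 1 left out; the 3 calls in WT were 14 with spike-in scaling, 5 without the 3 arrays and 3 to 6 with 1 left out (6 without WT virgin 369).

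Spike-in scaling put the median stage difference of all probes at −0.85 in KI and −0.96 in WT. Under it 8 values that were not called became called with the opposite sign: in WT Socs3 −0.86, Socs4 probe 3 −0.90 and Socs6 probe 3 −0.83, and in KI Socs4 probes 1, 2 and 3 −0.83, −0.74 and −0.81 and Socs6 probes 1 and 3 −0.80 and −0.61. Relative to that median Cish differed by 3.29 in KI and 2.45 in WT, and Socs1 by −1.41 in KI and −1.80 in WT. Spike-in scaling subtracts a constant per array, so differences relative to the median of all probes repeat those under the main settings. These values are therefore no separate support. Correlated pairs in virgins numbered 17, and 64 with median scaling, 38 with quantile normalization and 10 to 22 with 1 array left out. At day 18 they numbered 3, and 6 with median scaling, 0 with quantile normalization, 37 with spike-in scaling, 0 with normexp background, 1 with slide removed, 0 without mice 376 and 184 or without 376, 198 and 184, and 0 to 3 with 1 left out. The causes of these changes were not tested. Fitting only the groups of a comparison gives no value for the average or the interaction. No paired analysis was possible because the mouse numbers differ between groups. Dim probes limit Socs4 probe 1 and 2 Socs6 probes.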
